A study of Mus musculus with 10 samples.

Results

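Expression of 10 regulators of mitochondrial biogenesis was examined across the EDL, psoas, and soleus muscles of the mouse. They are the coactivators Ppargc1a, Ppargc1b, and Perm1, the estrogen-related receptors Esrra, Esrrb, and Esrrg, the peroxisome proliferator-activated receptors Ppara and Ppard, and the transcription factors Nrf1 and Tfam. The genes were chosen by name and function, with earlier results of these data known, and their Ensembl identifiers were matched to symbols with GENCODE M21, an annotation of the GRCm38 build. All 10 were found among the 16112 genes counted in the series, and each had reads in all 10 libraries.

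The libraries were made from total RNA of whole muscles after removal of ribosomal RNA, 3 of EDL, 3 of psoas, and 4 of soleus. All mice were of the strain B6C3Fe a/a-Ttnmdm/J with the genotype given as wild type, so that no mutant enters a comparison. According to the study's methods, the tissues came from mice also used in another study, and no treatment is given for the libraries. EDL 1, 2, and 3, and likewise psoas 1, 2, and 3, came from mice aged 42, 54, and 44 days, and soleus 1, 2, 3, and 4 from mice aged 42, 44, 32, and 44 days. Replicates 1 and 2 of EDL and psoas and soleus 1 were male, sex was not given for soleus 3, and the other libraries were female. Within a muscle every library had its own animal code, while 3 codes were shared between muscles.

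Transcription of nuclear genes shapes the mitochondrial content of muscle. The PGC-1 coactivators, which do not bind DNA themselves, join nuclear receptors of the ERR and PPAR families and the factor NRF1 at the promoters of nuclear genes for respiration and fat oxidation, and PERM1 is a muscle protein that acts with PGC-1 and ERR. NRF1 and the ETS factor GABP in turn drive nuclear genes such as Tfam, whose product packages the mitochondrial genome and takes part in its transcription. Slow and oxidative fibers, which abound in soleus, are rich in mitochondria, whereas EDL and psoas of the mouse consist mainly of fast fibers.

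The promoter windows of the 5 regulators called higher in soleus than in EDL are given first, as a description of sequence. Whether a motif goes with a call was not tested. Windows running from 250 bases before to 50 bases after an annotated start were read from RefSeq on GRCm38.p6, which held 14 windows for 9 of the 10 genes. They were searched on both strands for the ERR core AAGGTCA, the NRF1 core GCATGCGC, the ETS core CCGGAAG, the cyclic AMP response element TGACGTCA, and the MEF2 consensus. Capitals mark each match in the windows below, which are written 5′ to 3′ on the strand of the gene, and the Esrrb window, without a match, is shown for the gene with the largest fold change.
Esrrg, chr1:187608756-187609055, plus strand: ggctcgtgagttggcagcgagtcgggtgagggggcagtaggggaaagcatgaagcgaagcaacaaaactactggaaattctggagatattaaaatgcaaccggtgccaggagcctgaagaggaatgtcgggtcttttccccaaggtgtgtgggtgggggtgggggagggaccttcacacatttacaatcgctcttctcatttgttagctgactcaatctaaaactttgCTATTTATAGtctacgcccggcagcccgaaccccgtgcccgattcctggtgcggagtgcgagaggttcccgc
Esrrb, chr12:86360867-86361166, plus strand: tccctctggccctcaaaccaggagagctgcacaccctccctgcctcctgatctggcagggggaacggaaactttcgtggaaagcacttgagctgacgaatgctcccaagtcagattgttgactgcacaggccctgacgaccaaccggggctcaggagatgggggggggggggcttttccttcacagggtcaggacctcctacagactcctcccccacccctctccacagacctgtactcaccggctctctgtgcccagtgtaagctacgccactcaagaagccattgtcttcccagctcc
Perm1, chr4:156215677-156215976, plus strand: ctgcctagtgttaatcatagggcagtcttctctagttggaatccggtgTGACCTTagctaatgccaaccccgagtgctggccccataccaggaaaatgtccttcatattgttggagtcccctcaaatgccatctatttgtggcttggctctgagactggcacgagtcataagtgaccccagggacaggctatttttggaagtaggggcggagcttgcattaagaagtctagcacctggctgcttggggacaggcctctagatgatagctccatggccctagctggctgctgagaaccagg
Esrra, chr19:6921759-6922058, minus strand: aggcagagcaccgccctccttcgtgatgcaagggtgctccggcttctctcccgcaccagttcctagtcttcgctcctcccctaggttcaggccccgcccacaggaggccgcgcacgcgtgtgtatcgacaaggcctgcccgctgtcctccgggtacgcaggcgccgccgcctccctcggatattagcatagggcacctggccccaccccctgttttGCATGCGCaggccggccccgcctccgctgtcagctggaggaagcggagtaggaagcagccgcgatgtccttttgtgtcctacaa
Ppara, chr15:85735526-85735825, plus strand: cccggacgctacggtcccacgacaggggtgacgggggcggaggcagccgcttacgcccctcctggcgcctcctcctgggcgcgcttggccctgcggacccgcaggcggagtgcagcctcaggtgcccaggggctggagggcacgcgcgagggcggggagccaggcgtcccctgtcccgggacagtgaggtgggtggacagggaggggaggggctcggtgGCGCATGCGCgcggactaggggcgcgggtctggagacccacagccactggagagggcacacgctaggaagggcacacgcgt

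The first of 4 annotated Esrrg windows held a MEF2 consensus, CTATTTATAG, whose last base lay 13 bases before the start, and the other 3 windows held none of the motifs. The Perm1 window held the ERR core in reverse orientation, from 202 to 196 bases before the start. The NRF1 core lay within 34 bases upstream of the Esrra start, and in Ppara it matched in both orientations at overlapping positions within 31 bases upstream. Both Esrrb windows held none of the motifs. Of the remaining members, Tfam held the ETS core from 47 to 41 bases before its start, 1 of the 2 Nrf1 windows held a MEF2 consensus, and no motif was matched in the windows of Ppargc1a or Ppard. Among all 32851 windows of the table, 4.72% held the ERR core, 2.71% the NRF1 core, 8.86% the ETS core, 1.79% the cyclic AMP response element, and 3.19% the MEF2 consensus. Among the 13672 windows of genes counted in these files, the shares were 3.22%, 4.81%, 15.9%, 2.83%, and 1.95%, in the same order. The counts are per gene and do not tell which annotated start was used, so a match describes the sequence only.

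Total counts per library ran from 12737971 to 50431713, and an observed count of 0 would allow up to between 0.0595 and 0.236 CPM (counts of a gene per 1000000 counts of the library), a limit that covers counting error only. Slow fiber markers (5 of 5 in the files: Myh7, Myl2, Tnni1, Tnnt1, and Tnnc1) summed to between 12231 and 21048 CPM in soleus, against 39.1 to 232 in EDL and 5.73 to 25.3 in psoas, and the 5 fast fiber markers were lowest in soleus, as the muscles are labelled. In whole muscle, fewer fibers of a type and less RNA per fiber cannot be told apart, and this holds for every difference below. The reads of replicates 1 and 2 of EDL and psoas, and of no soleus library, were quality-trimmed before alignment. Trimming and sex therefore go together in EDL and psoas, where trimmed libraries came from mice of 42 and 54 days and untrimmed ones of 44. Differences of the regulators in soleus from these muscles are given within the untrimmed libraries as well. In the paragraphs on single regulators, such differences are of mean log2 CPM and are not fitted values.

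Read counts were scaled to CPM with TMM factors, and muscles were compared in a single fit to the 10 libraries by the quasi-likelihood test of edgeR, with Benjamini-Hochberg adjustment over the 16112 genes. A gene is referred to as called when its adjusted p was under 0.01 and its fold change over 2. In soleus vs EDL, 5 of the 10 regulators were called, all higher in soleus: Perm1, Esrra, Esrrb, Esrrg, and Ppara. Over all genes, 3.59% were called higher in soleus and 2.18% lower. In soleus vs psoas, Esrrb and Esrrg were called higher in soleus, against 2.99% of all genes called higher and 2.71% lower. In psoas vs EDL, Esrrg was called higher in psoas, against 0.54% of all genes called higher and 1.57% lower. No regulator was called lower in any comparison by edgeR, DESeq2, or limma-voom, and 1, Ppard in soleus vs psoas, was lower at an unadjusted p under 0.05. The 3 comparisons share libraries, and so their counts are not independent of one another. In the 6 untrimmed libraries alone (1 EDL, 1 psoas, and 4 soleus), a setting chosen after seeing the data, Esrrg in soleus vs EDL was the only call left, with a log2 fold change of 3.41 ± 0.30 (SE) and an adjusted p of 0.00503, the highest of its alternatives, which began at 3.82e-60. The single libraries of EDL and psoas are there assumed to vary like those of soleus. The log2 values of the lost calls were then 1.70 (Perm1), 0.85 (Esrra), 4.06 (Esrrb), and 2.74 (Ppara) in soleus vs EDL, with adjusted p-values from 0.0111 to 0.171, 2.09 (Esrrb) and 2.08 (Esrrg) in soleus vs psoas, and 1.33 (Esrrg) in psoas vs EDL. Since EDL and psoas had 1 library each, the number of regulators that differed cannot be judged in this setting.

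**Figure D1:**
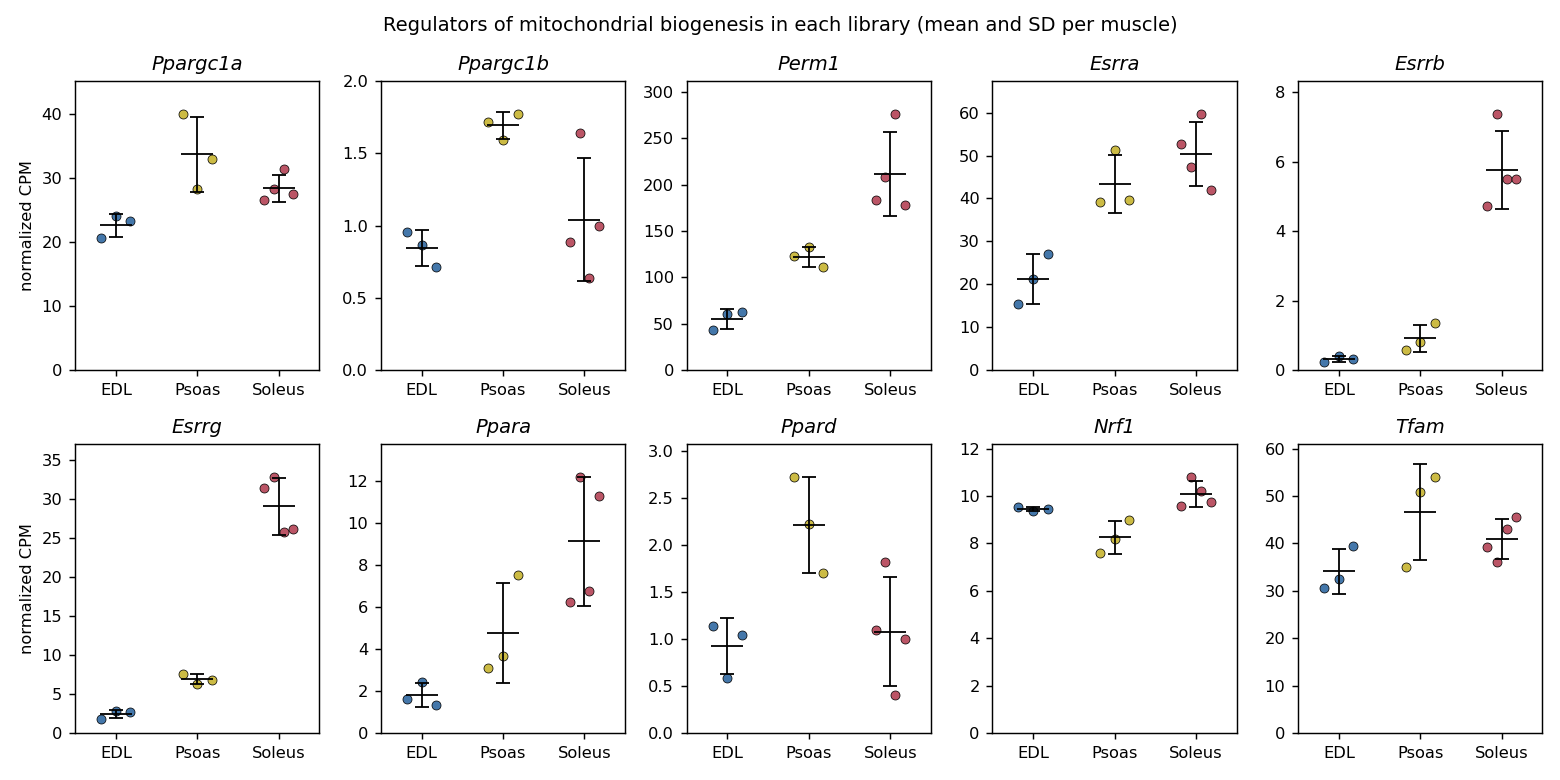
Normalized CPM (vertical axes, from 0) of each of the 10 regulators in the libraries of EDL, psoas, and soleus, with points for single libraries and bars for the mean and SD. Each of the 4 soleus libraries stands above every EDL and psoas library for Esrrg, Esrrb, and Perm1, and narrowly for Nrf1. Ppargc1a, Ppargc1b, Ppard, and Tfam have their highest means in psoas, and Nrf1 lies between 7.6 and 10.8 CPM throughout.

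With the looser limit of an adjusted p under 0.05 and no fold limit, 6 regulators were higher in psoas than in EDL (Ppargc1a, Perm1, Esrra, Esrrb, Esrrg, and Ppara), where 4.76% of all genes were. The same limit gave the 5 called genes in soleus vs EDL, against 9.79% of all genes, and added Perm1 to the 2 called genes in soleus vs psoas, against 7.75% of all genes. Every psoas library lay above every EDL library for 8 regulators, compared with 13.4% of all genes. Every soleus library lay above every EDL library for 7 regulators, compared with 15.2% of all genes, and above every psoas library for 4, compared with 13.9%. The median log2 fold change of the 10 regulators was 1.08 in psoas vs EDL, 0.79 in soleus vs EDL, and 0.25 in soleus vs psoas, beside medians over all genes of 0.01, −0.05, and 0.02.

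**Figure D2:**
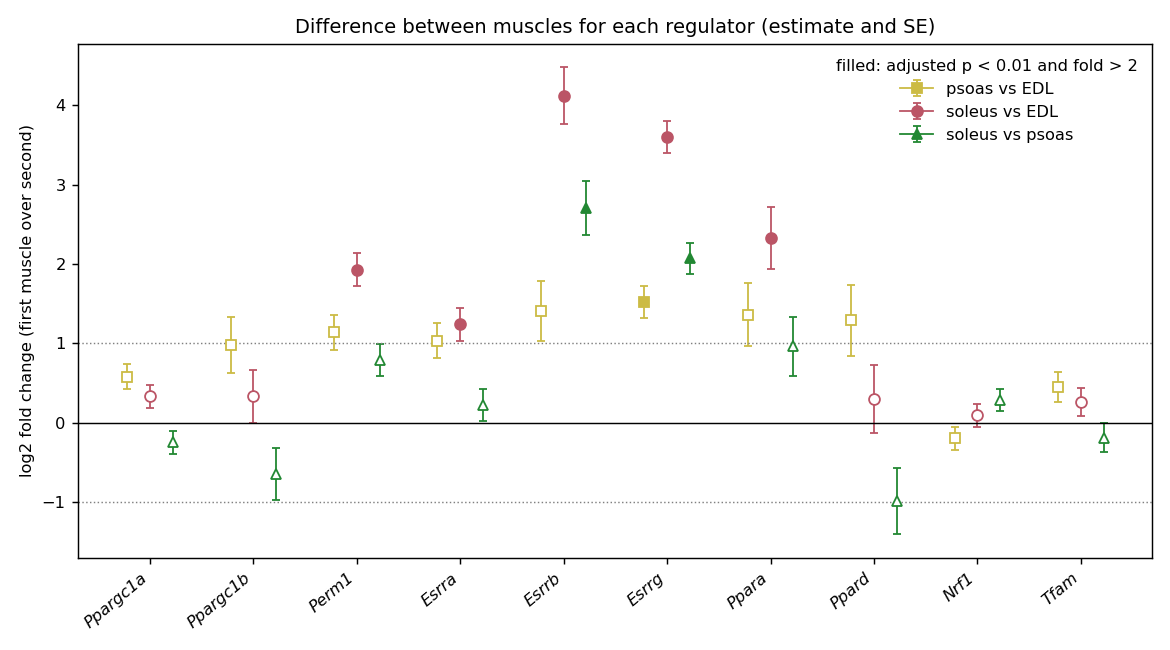
Log2 fold change (vertical axis) of each regulator in psoas vs EDL, soleus vs EDL, and soleus vs psoas, with the SE of the fit. Filled symbols mark an adjusted p under 0.01 with a fold change over 2, which are Esrrg in all 3 comparisons, Esrrb in both comparisons of soleus, and Perm1, Esrra, and Ppara in soleus vs EDL alone, and dotted lines mark a fold change of 2.

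Levels of different genes were compared as FPKM, taken here as normalized CPM per kilobase of summed exon. Perm1 was the highest regulator in each muscle, with mean values of 14.2 ± 2.83 FPKM over the 3 EDL, 31.4 ± 2.82 over the 3 psoas, and 54.2 ± 11.6 over the 4 soleus libraries (SD), and its libraries did not overlap with those of the next gene. Tfam, Esrra, and Ppargc1a followed in EDL, with mean FPKM values of 7.69, 4.86, and 3.43, where the ranges of Esrra and Ppargc1a overlapped. The order of these genes was the same in psoas, with 10.5, 9.87, and 5.11, where Tfam and Esrra overlapped. In soleus, Esrra (11.5) and Tfam (9.23) overlapped, and Esrrg (4.68) stood beside Ppargc1a (4.30), with overlapping ranges.

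The other regulators lay lower. Esrrg held the seventh place in EDL, at 0.388 ± 0.0859 FPKM, below Ppara (0.468), with which it overlapped, and Nrf1 (0.919). It came sixth in psoas, at 1.11 ± 0.103, where its range overlapped that of Ppara (1.24). Esrrb had the lowest level in EDL (0.0539) and psoas (0.152), and reached 0.954 in soleus, where it overlapped with Nrf1 (0.98). Ppargc1b and Ppard were the lowest in soleus, at 0.262 and 0.144 FPKM, with overlapping ranges. From EDL to soleus, Esrrg went from rank 7 to 4 and Esrrb from rank 10 to 8.

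**Figure D3:**
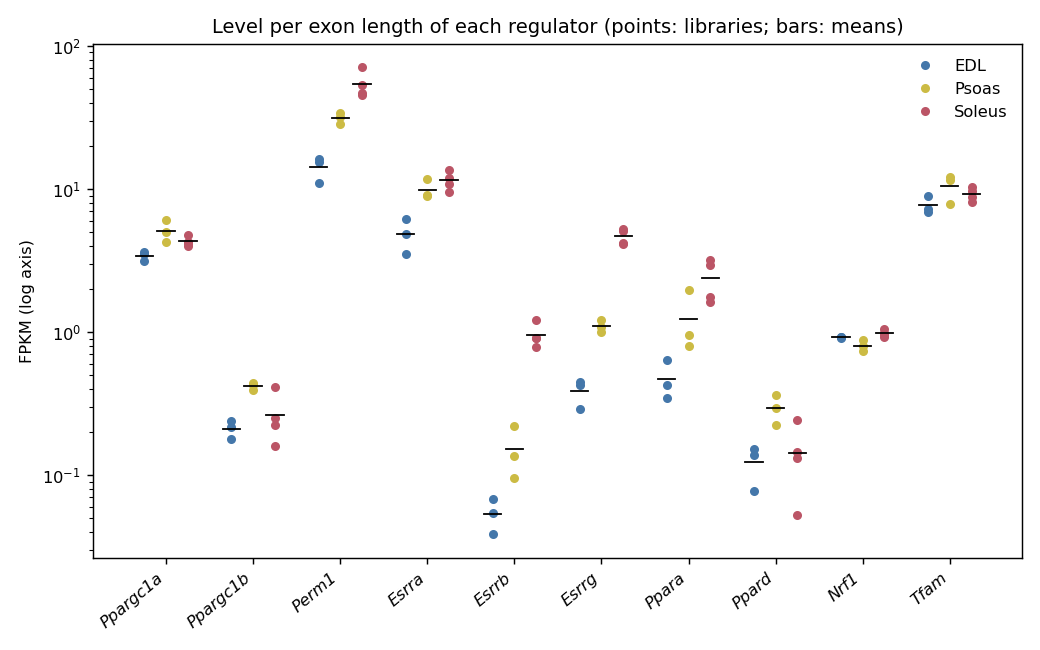
FPKM on a log axis for each regulator, with points for the libraries of the 3 muscles and bars for the means. Perm1 is highest in each muscle, and Esrrg has means of 0.388 in EDL and 4.68 in soleus, the latter next to Ppargc1a at 4.30.

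Ppargc1a, which encodes the coactivator PGC-1α (chromosome 5, 51454250 to 51567726, minus strand), was called in no comparison. Its level was 20.6, 24.0, and 23.2 CPM in EDL 1 to 3, 39.9, 28.3, and 32.9 in psoas 1 to 3, and 26.5, 28.3, 31.3, and 27.4 in soleus 1 to 4. All psoas and soleus libraries lay above the EDL libraries, while soleus and psoas overlapped. The log2 fold change was 0.58 ± 0.16 (SE) in psoas vs EDL, with an adjusted p of 0.0403, 0.33 ± 0.15 in soleus vs EDL, with 0.143, and −0.25 ± 0.15 in soleus vs psoas, with 0.307. In the untrimmed libraries soleus differed by 0.29 from EDL and by −0.21 from psoas. With the replicate number as a block, which pairs EDL and psoas libraries of like age, sex, and trimming, the adjusted p in psoas vs EDL was 0.0883, within a range of 0.00963 to 0.794 over the alternatives. The gene overlaps Gm42615 and Gm43605 on the same strand, both at or below 1.77 CPM.

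Ppargc1b, the gene of the related coactivator PGC-1β, was far lower. It had 0.957, 0.867, and 0.714 CPM in EDL, 1.72, 1.59, and 1.77 in psoas, and 0.889, 1.64, 0.638, and 1 in soleus, from counts between 8 and 65. Psoas lay above EDL in every library, and soleus 2 alone among the soleus libraries came within the range of psoas. No comparison passed the test, with log2 fold changes of 0.98 ± 0.35 (adjusted p = 0.0933) in psoas vs EDL, 0.33 ± 0.33 (0.507) in soleus vs EDL, and −0.65 ± 0.33 (0.224) in soleus vs psoas. The value for soleus vs EDL became −0.004 without soleus 2. In the untrimmed libraries soleus differed from EDL by 0.44 and from psoas by −0.82. Per kilobase of exon, Ppargc1a made up 94.1% ± 1.17 (SD, n = 3) of the summed level of both genes in EDL, 92.2% ± 0.987 in psoas, and, over 4 libraries, 94.3% ± 2.28 in soleus, with overlapping ranges.

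Perm1 (chromosome 4, 156215868 to 156221307, plus strand) was graded over the muscles. Its level was 42.9, 60.4, and 63.2 CPM in EDL, 123, 133, and 111 in psoas, and 184, 208, 276, and 178 in soleus. The 3 muscles did not overlap at any library. The log2 fold change was 1.93 ± 0.21 in soleus vs EDL, a 3.81-fold difference with an adjusted p of 0.000245. It was 1.14 ± 0.22 in psoas vs EDL, with an adjusted p of 0.0106, just short of the threshold, and 0.79 ± 0.20 in soleus vs psoas, with 0.0244 and a fold change of 1.73. The soleus vs EDL value was called in all alternatives but the untrimmed libraries, with adjusted p-values from 2.19e-16 to 0.0449. Under 7 of 22 alternative settings the psoas vs EDL difference was called, among them DESeq2 (adjusted p = 3.31e-05) and the fit without EDL 3 (0.00706), and the adjusted p ran up to 0.731 in the untrimmed libraries. In the untrimmed libraries, 4 of soleus against 1 of EDL, the log2 difference from EDL was 1.72.

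Esrrg (chromosome 1, 187608791 to 188214885, plus strand), which encodes ERRγ, a constitutively active receptor found in oxidative fibers, had the lowest adjusted p of the regulators in each comparison. It had 1.80, 2.79, and 2.64 CPM in EDL, 7.55, 6.28, and 6.80 in psoas, and 31.4, 32.8, 25.8, and 26.1 in soleus. The lowest soleus library stood far above the highest psoas library, and the lowest psoas library above the highest EDL library. Soleus exceeded EDL by 12.1-fold, a log2 fold change of 3.60 ± 0.20 with an adjusted p of 4.64e-06, which ranked 4 by p-value among all genes. This call was made under 21 of 21 alternatives, with log2 values from 3.36 to 3.73, and is the only one of the regulators' calls to hold under each of them.

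Soleus exceeded psoas by 4.21-fold in Esrrg, with a log2 fold change of 2.07 ± 0.19 and an adjusted p of 8.96e-05, between 5.27e-21 and 0.0191 over the alternatives. Psoas exceeded EDL by 2.87-fold, with 1.52 ± 0.20 and 0.0023. The psoas vs EDL call was kept in 17 of 22 alternatives, among them the replicate block over all libraries (adjusted p = 0.00942). It was lost in a fit of psoas and EDL alone (0.0177), with the block in that fit (0.0186), without EDL 1 (0.0103), and without psoas 1 (0.0102). The call was also lost in the untrimmed libraries. In all these fits the log2 fold change lay between 1.31 and 1.54. Over all 22 alternatives its adjusted p ran from 6.2e-09 to 0.389. Within the trimmed libraries the log2 difference of psoas from EDL was 1.60, and between the single untrimmed ones 1.35. Animal codes shared between muscles gave the same direction, with 32.8 CPM in soleus 2 against 2.64 in EDL 3, 31.4 in soleus 1 against 7.55 in psoas 1, and 26.1 in soleus 4 against 6.80 in psoas 3.

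Esrrb (chromosome 12, 86361117 to 86521628, plus strand), the gene of ERRβ, a factor best known from embryonic stem cells and the placenta, had the largest fold changes of soleus from both other muscles, where its level was the lowest of the regulators. It had 0.234, 0.415, and 0.330 CPM in EDL, 0.581, 0.824, and 1.35 in psoas, and 4.72, 7.36, 5.50, and 5.49 in soleus. The counts behind these values ran from 6 to 22 in EDL, 13 to 22 in psoas, and 69 to 246 in soleus, each above the 3 counts taken as the floor of a library. The muscles did not overlap. Soleus exceeded EDL by 17.4-fold, with a log2 fold change of 4.12 ± 0.36 and an adjusted p of 7.61e-05, and psoas by 6.55-fold, with 2.71 ± 0.34 and 0.000444. Over the alternatives these adjusted p-values ran from 1.78e-23 to 0.0111 and from 8.37e-12 to 0.0482, with the highest in the untrimmed libraries. The difference of psoas from EDL was 1.41 ± 0.38, with an adjusted p of 0.0364, and did not pass both thresholds.

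Esrra (chromosome 19, 6910977 to 6921813, minus strand) encodes ERRα, the most widely expressed ERR and a main partner of PGC-1α. Its level was 15.5, 21.3, and 27.1 CPM in EDL, 39.2, 51.2, and 39.6 in psoas, and 52.6, 47.3, 59.6, and 42.0 in soleus. EDL lay below both other muscles in every library, and psoas and soleus overlapped. The log2 fold change was 1.24 ± 0.21 in soleus vs EDL, with an adjusted p of 0.00281, 1.03 ± 0.22 in psoas vs EDL, with 0.0161, and 0.22 ± 0.20 in soleus vs psoas, with 0.535. The soleus vs EDL call was lost with a covariate for read trimming (adjusted p = 0.025) and without EDL 1 (0.019), EDL 2 (0.0167), or soleus 3 (0.0103), with log2 values of 1.12, 1.01, 1.24, and 1.10. Over the alternatives its adjusted p ran from 2.54e-06 to 0.171. Among untrimmed libraries the log2 difference was 0.88. Reads of Esrra and of Trmt112 on the opposite strand, which had 3.50 to 7.18 CPM, cannot be told apart where the genes overlap if the counting ignored strand, which is not stated.

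The makeup of the ERR family followed from these differences. Per kilobase of exon, the 3 receptors summed to a level of 5.30 ± 1.40 FPKM over the EDL, 11.1 ± 1.46 over the psoas, and 17.1 ± 1.72 over the soleus libraries (SD), without overlap. Esrrg made up 7.49%, 8.36%, and 6.37% of this sum in EDL 1 to 3, 11.9%, 7.89%, and 10.6% in psoas, and 28.4%, 30.6%, 22.3%, and 28.6% in soleus. Soleus lay apart from both other muscles, which overlapped with each other. The mean Esrrb share was 1.03% in EDL, 1.38% in psoas, and 5.62% ± 1.21 in soleus, and Esrra made up 91.6% ± 1.23, 88.5% ± 2.20, and 66.9% ± 4.41. The shares are described without a test, since they combine the members' levels.

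**Figure D4:**
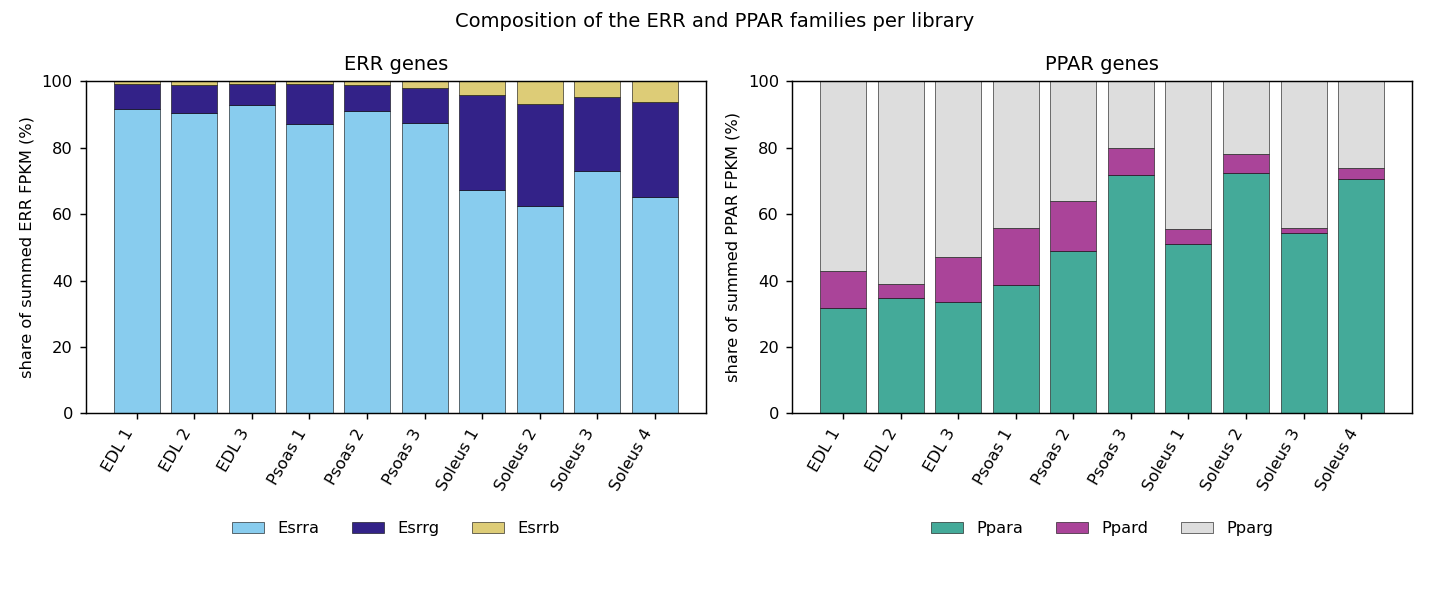
Share in percent of each gene in the summed FPKM of the ERR genes (left) and of the PPAR genes (right) for each of the 10 libraries. Esrrg takes 22.3% to 30.6% of the ERR sum in soleus and at most 11.9% elsewhere, and Ppara takes 31.7% to 34.8% of the PPAR sum in EDL and 51.0% to 72.4% in soleus.

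Ppara (chromosome 15, 85734983 to 85802819, plus strand) encodes the receptor PPARα, which is activated by fatty acids and governs their oxidation. It had 1.63, 2.43, and 1.32 CPM in EDL, 3.09, 3.68, and 7.51 in psoas, and 6.23, 12.2, 6.78, and 11.3 in soleus. All soleus and psoas libraries lay above EDL, and psoas 3 fell within the range of soleus. Soleus exceeded EDL by 5.02-fold, with a log2 fold change of 2.33 ± 0.39 and an adjusted p of 0.00258. The difference of psoas from EDL was 1.36 ± 0.40 (adjusted p = 0.0492), and that of soleus from psoas 0.96 ± 0.37 (0.109). The soleus vs EDL call was lost with a trimming covariate (0.0428) and without EDL 1 (0.0174), with log2 values of 2.01 and 2.19, and the adjusted p ran from 4.43e-08 to 0.0473 over the alternatives. In psoas vs EDL the log2 difference was 0.75 within the trimmed libraries and 2.48 between the single untrimmed ones, psoas 3 and EDL 3. Soleus differed from psoas by 0.22 in the untrimmed libraries and from EDL by 2.69.

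Ppard (chromosome 17, 28232700 to 28301474, plus strand) is the gene of PPARδ, a receptor linked to oxidative fibers. Ppard resembled Ppara in psoas vs EDL (log2 fold changes of 1.29 and 1.36) but did not follow Ppara in soleus. It had 1.14, 0.584, and 1.04 CPM in EDL, 2.72, 2.22, and 1.70 in psoas, and 1.09, 1.82, 0.399, and 1 in soleus, from as few as 5 counts in soleus 3. Psoas lay above EDL, and soleus overlapped with both. The log2 fold changes were 1.29 ± 0.45 in psoas vs EDL (adjusted p = 0.0896), 0.30 ± 0.43 in soleus vs EDL (0.659), and −0.99 ± 0.42 in soleus vs psoas (0.148). The fitted soleus vs EDL value turned to −0.11 without soleus 2. In the untrimmed libraries the difference of mean log2 CPM was −0.13, against 0.05 in the fit. That of soleus vs psoas was −0.81, against −0.61 in the fit.

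Pparg, which encodes PPARγ, the main regulator of adipocytes, is not a member but completes the family. It had 1.59 to 3.28 CPM in EDL, 1.63 to 2.72 in psoas, and 2.87 to 4.23 in soleus, and passed the test in no comparison. Of the summed FPKM of the 3 PPAR genes, Ppara made up 33.4% ± 1.57 (SD, n = 3) in EDL, 53.0% ± 16.9 in psoas, and 62.1% ± 11 (n = 4) in soleus, while Pparg made up 56.9% ± 4.08, 33.5% ± 12.2, and 34.2% ± 11.7. Ppard made up 9.73% ± 4.86, 13.6% ± 4.71, and 3.73% ± 1.69. Without the division by exon length, the Ppard share was 19.5% in EDL, 25.1% in psoas, and 7.57% in soleus, beside 45.8%, 24.4%, and 27.8% for Pparg, so that the order of the pair in psoas turned.

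Fat cells also express PPAR genes, and their markers were measured in the same libraries. The 6 adipocyte markers (Adipoq, Plin1, Cfd, Lep, Cidec, and Fabp4) summed to 104 to 221 CPM in EDL, 88.3 to 188 in psoas, and 150 to 305 in soleus. Their median log2 fold change was 2.02 in soleus vs EDL, 1.74 in soleus vs psoas, and 0.14 in psoas vs EDL. By edgeR and limma-voom none was called in soleus vs EDL, where Plin1, Cfd, and Cidec had edgeR adjusted p-values between 0.0319 and 0.0447 and 5 markers an unadjusted p under 0.05, each higher in soleus. DESeq2 called Plin1 and Cidec (adjusted p = 0.00294 and 0.00454), and over all alternatives the adjusted p ran up to 0.435 and 0.26. In soleus vs psoas, 4 markers had an unadjusted p under 0.05, each higher in soleus, and edgeR and limma-voom called none. DESeq2 called Plin1 and Lep there (adjusted p = 0.00951 and 0.000103). Of all genes, 17% were higher at this unadjusted limit in soleus vs EDL and 15.1% in soleus vs psoas. Lep was at 0 in a psoas library. Of 5 brown adipocyte markers, Ucp1 and Elovl3 are not among the genes counted, and Cidea was called higher in soleus than in EDL (3.35 to 9.51 against 0.22 to 0.49 CPM). Prdm16 and Dio2 had log2 fold changes of −0.34 and −0.39 in that comparison and were not called, and the median of the 3 was −0.34. Cidea and Dio2 were called higher in soleus than in psoas, and Dio2 lower in psoas than in EDL. The part of such cells in the Ppara difference was not tested.

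Nrf1 (chromosome 6, 30047988 to 30153458, plus strand), which encodes nuclear respiratory factor 1, lay between 7.60 and 10.8 CPM in all libraries. Its level was 9.53, 9.38, and 9.45 CPM in EDL, 7.60, 8.18, and 8.99 in psoas, and 9.58, 10.8, 10.2, and 9.76 in soleus. Psoas lay below EDL, and soleus above both, in every library. These steps were small, with log2 fold changes of −0.20 ± 0.15 in psoas vs EDL (adjusted p = 0.413), 0.09 ± 0.14 in soleus vs EDL (0.662), and 0.29 ± 0.14 in soleus vs psoas (0.202), and none passed the test. Untrimmed libraries gave 0.09 and 0.16 for soleus vs EDL and vs psoas. It was the only regulator for which every psoas library lay below every EDL library.

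Tfam (chromosome 10, 71225464 to 71238280, minus strand), the mitochondrial transcription and packaging factor, had 30.5, 32.4, and 39.5 CPM in EDL, 35.0, 50.9, and 54.0 in psoas, and 39.3, 36.0, 43.0, and 45.5 in soleus. All pairs of muscles overlapped. The log2 fold change was 0.45 ± 0.19 in psoas vs EDL (adjusted p = 0.142), 0.26 ± 0.18 in soleus vs EDL (0.316), and −0.19 ± 0.18 in soleus vs psoas (0.542). No comparison of Tfam passed the test, and in the untrimmed libraries soleus vs EDL was 0.05 and soleus vs psoas −0.40.

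The genes on which these regulators act, and those that act with them, were followed in 6 lists, described by counts in the same fit. Counts by DESeq2 are named as such, and DESeq2 called more of all genes than edgeR in each comparison. At an unadjusted p under 0.05, a limit given where few or none were called, 13.6% of all genes were higher and 15.4% lower in psoas than in EDL, 17% higher and 18.1% lower in soleus than in EDL, and 15.1% higher and 13.3% lower in soleus than in psoas, beside which the counts of a list are to be read. Of 20 fatty acid genes under PPAR control, 15 were called higher in soleus than in EDL, 4 higher in soleus than in psoas (Acadm, Cd36, Lpl, and Acot2), and none in psoas vs EDL, where 3 had an adjusted p under 0.05, 10 an unadjusted p under 0.05, and DESeq2 called 3. Of the soleus vs EDL calls, only that of Lpl was made under all 21 alternatives, while Acadvl was called under 11 and Acadl and Hadhb under 14. In soleus vs psoas, Acadm, Cd36, Acot2, and Lpl were called under 9, 13, 16, and 20 alternatives. The median log2 fold change of the list was 1.61 in soleus vs EDL, 0.92 in soleus vs psoas, and 0.63 in psoas vs EDL. Over all genes, 3.59% were called higher in soleus than in EDL and 2.99% higher in soleus than in psoas. In psoas vs EDL, 4.76% of all genes were higher in psoas at an adjusted p under 0.05. In soleus vs psoas, DESeq2 called 8 of the list higher. At an adjusted p under 0.05, 12 were higher there, against 7.75% of all genes, and 1 was lower at an unadjusted p under 0.05. Lpl, which encodes the lipase that releases fatty acids from circulating triglycerides, had 218 to 255 CPM in EDL, 429 to 532 in psoas, and 1596 to 1684 in soleus. Pdk4, the kinase that restrains pyruvate oxidation, had the largest difference of the list between soleus and EDL, a log2 fold change of 3.19 ± 0.54 (adjusted p = 0.00298). It had 25.3 to 144 CPM in EDL, 560 to 590 in psoas, and 334 to 970 in soleus, a range that encloses that of psoas. Its difference of psoas from EDL, 2.83 ± 0.55, had an adjusted p of 0.0115 and was not called, while 7 alternatives called it, with adjusted p-values from 9.01e-07 to 0.337 over all of them.

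Of 21 oxidative genes under ERR and PGC-1 control, 3 were called higher in soleus than in EDL (Ldhb, Fndc5, and Mfn2), Ldhb and Fndc5 also in soleus vs psoas, and none in psoas vs EDL, where DESeq2 called 1 and 6 had an unadjusted p under 0.05. Ldhb, the lactate dehydrogenase subunit of oxidative tissue, ran from 751 to 992 CPM in soleus, against 67.7 to 91.9 in EDL and 54.1 to 198 in psoas. Fndc5, the precursor of irisin, ran from 158 to 220 CPM in soleus, against 28.6 to 43.1 in EDL and 54.4 to 82.1 in psoas. The other genes of the list encode mainly enzymes of the citric acid cycle and subunits of respiration and were not called by edgeR, while DESeq2 also called Ogdh higher in soleus than in EDL (2.33-fold in the edgeR fit, with adjusted p-values of 0.0202 there and 0.000797 to 0.453 over the alternatives). At looser limits more of the list was higher in soleus than in EDL. Of the 21 genes, 7 had an adjusted p under 0.05, where 9.79% of all genes were higher. At an unadjusted p under 0.05, 15 were higher and 0 lower, where 17% of all genes were higher. In soleus vs psoas, 3 were higher and 2 lower at that limit. The median of the whole list was 0.61 in soleus vs EDL, 0.25 in soleus vs psoas, and 0.38 in psoas vs EDL. None of the 13 messenger RNAs of the mitochondrial genome was called in any comparison by edgeR, DESeq2, or limma-voom, and at an unadjusted p under 0.05, 4 were higher in psoas than in EDL and 3 lower in soleus than in psoas, of 13. Their medians were 0.11 in soleus vs EDL, −0.78 in soleus vs psoas, and 0.86 in psoas vs EDL.

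**Figure D5:**
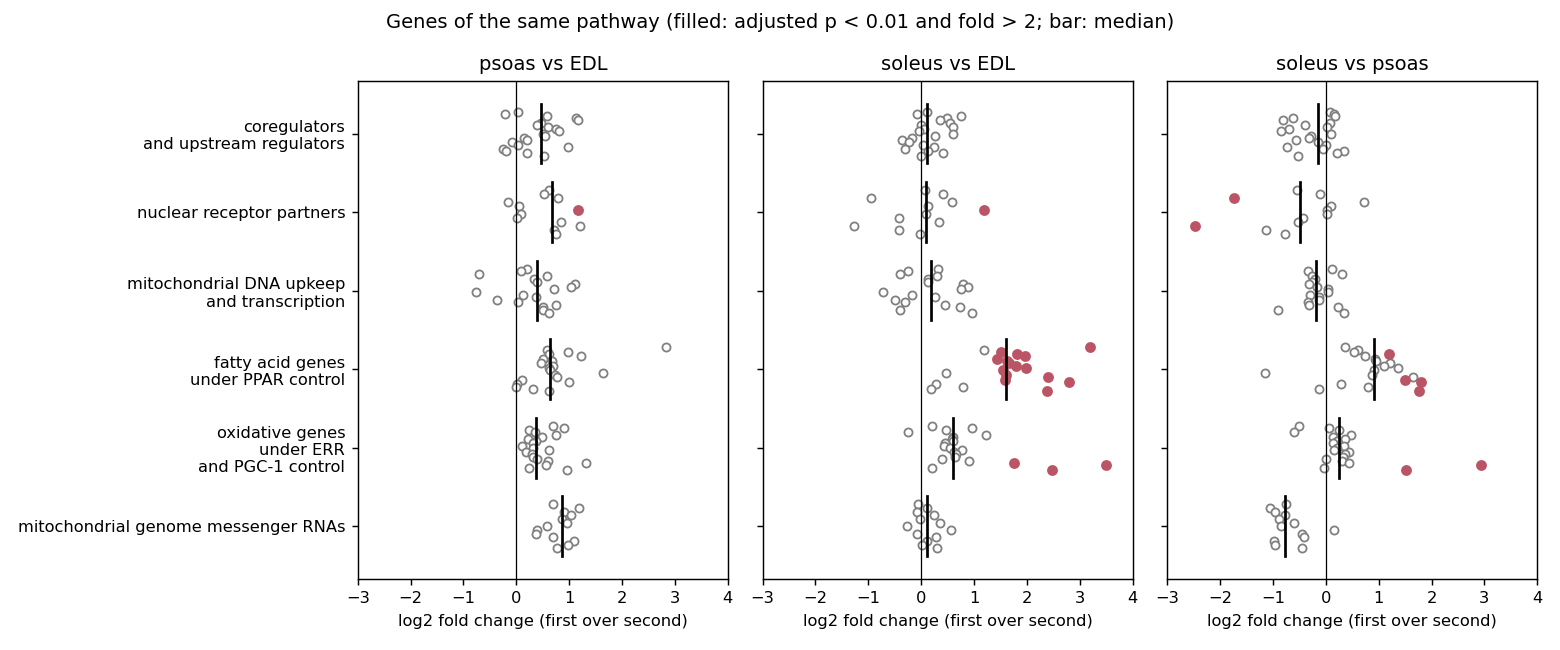
Log2 fold change (horizontal axes) of the genes in 6 lists related to the regulators, in psoas vs EDL, soleus vs EDL, and soleus vs psoas, with filled points for called genes and bars for list medians. The fatty acid genes hold 15 of the points called in soleus vs EDL, with a median of 1.61, and the messenger RNAs of the mitochondrial genome hold none in any comparison.

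Of 51 partners of the regulators in 3 lists, edgeR called 1.96% in psoas vs EDL, 1.96% in soleus vs EDL, and 3.92% in soleus vs psoas, from 1, 1, and 2 genes, against 2.11%, 5.77%, and 5.69% of all genes. None of 21 coregulators and upstream regulators was called by edgeR in any comparison, while DESeq2 called 2 higher in psoas than in EDL. At an adjusted p under 0.05, 4 were higher in psoas than in EDL, where 4.76% of all genes were, and 9 at an unadjusted p under 0.05. Among these, Ncoa1, a coactivator of nuclear receptors, had a log2 fold change of 1.17 ± 0.24 (adjusted p = 0.0146), and Kat2a, an acetyltransferase that acts on PGC-1α, 1.12 ± 0.25 (0.0175). None of 18 genes for the upkeep and transcription of mitochondrial DNA was called by edgeR, DESeq2, or limma-voom, and at an unadjusted p under 0.05, 6 were higher and 2 lower in psoas than in EDL and 6 higher and 3 lower in soleus than in EDL. Of 12 nuclear receptor partners, Thrb, the thyroid hormone receptor β gene, was called higher in psoas and in soleus than in EDL, with 4.93 to 6.59 CPM in EDL, 11.8 to 14.0 in psoas, and 10.7 to 15.6 in soleus. Rxrg, a retinoid X receptor, the class with which PPARs pair on DNA, was called lower in soleus than in psoas, with 8.67 to 11.4 against 26.1 to 43.9 CPM. Nr4a1, an early response receptor, was likewise lower, with 4.47 to 9.17 against 24.1 to 43.6 CPM.

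In psoas vs EDL, where 8 regulators stood higher in each psoas library, tendon markers moved the other way. The 6 markers (Tnmd, Scx, Mkx, Fmod, Thbs4, and Comp) summed to 506 to 532 CPM in EDL, 27.2 to 70.3 in psoas, and 105 to 387 in soleus, and all 6 were called lower in psoas than in EDL. The 5 macrophage markers summed to 61.3 to 136 CPM in EDL and 27.9 to 52.4 in psoas, and the 5 endothelial markers to 123 to 210 and 113 to 124. Their part in the differences of the regulators was not tested. The replicate block over all libraries left 146 genes called in psoas vs EDL, against 340 without it.

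Genes whose log2 CPM followed a regulator most closely over the 10 libraries were sought among 12654 named genes with a mean of at least 1 CPM, and Pearson's r is given as a description. The libraries are of 3 muscles, so that any pair of genes that differ alike between muscles yields a high value. For Esrrg these genes were Lynx1, Snai3, and Lpl (0.987, 0.987, and 0.981), and for Perm1 they were Mcur1, Mknk2, and Herc3 (0.986, 0.982, and 0.979). The nearest to Ppara were Flnc, Rrp12, and Pfkl (0.979, 0.958, and 0.951). Ppargc1a was nearest to Rfx7, Arhgef6, and Sync (0.952, 0.941, and 0.933), and Ppargc1b to Prdm2, Gbf1, and Tbc1d17 (0.932, 0.916, and 0.906).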

How the data were processed

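RNA of 10 libraries was sequenced as stranded paired reads on a NextSeq instrument in 3 runs, and the run of each library is not given. According to the submitters' processing notes and the methods, the authors used Trimmomatic 0.32 on libraries of low quality, TopHat2 2.1.1 for alignment to GRCm38, and R for counting per gene, and kept genes with at least 10 reads in 3 samples. The authors deposited raw counts that were not normalized, and multi-mapping and strand settings are not stated.

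Counts were analyzed with edgeR 4.0.16 (TMM, quasi-likelihood test, 7 residual degrees of freedom, no covariate) in R 4.3.3, with DESeq2 1.42.0 and limma 3.58.1 as alternatives, and tables were made with Python 3.11.15. The main test used edgeR, and the study's thresholds, adjusted p 0.01 and fold 2, were kept. The test was checked on simulated counts. FPKM used summed exon lengths of GENCODE M21, and 16032 genes had a symbol. Correlations used a prior count of 1. The members and gene lists were chosen with earlier results of these data known. All members are named, and of the lists the called genes and the 2 largest changes per comparison may be. Same-numbered EDL and psoas libraries deviated together (r = 0.263, 0.106, and 0.504), and so did EDL 1 with psoas 2 (0.297) and EDL 2 with psoas 1 (0.277). Each same-numbered pair passed 0.1, the limit used, but so did these crosswise pairs, so the values do not single out the replicate number. It was used as a block all the same, although the animal codes of these libraries differ. The block over all libraries also grouped the soleus libraries by number, with soleus 4 on its own. No pair of the 10 libraries agreed within sampling noise. The study's text and the labels differ in the number of mice, so some animal codes may share a mouse.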

Additional observations from a re-analysis of the deposited data

How the results depend on the processing

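No direction of a regulator changed under another scaling, and over all alternatives 2 fitted values changed direction, both in soleus vs EDL and both without soleus 2. Leaving out each library in turn gave log2 values from −0.004 to 0.43 for Ppargc1b and from −0.11 to 0.48 for Ppard. In psoas vs EDL, the number of regulators called (1) was 4 with DESeq2, 2 with limma-voom, with a covariate for trimming, with one for sex (without soleus 3), and with the animal code as a random effect, 0 in a fit of these muscles alone, 6 at an adjusted p under 0.05, and 0 to 3 when each library was left out. It was 1 with the replicate block over all libraries, 0 with the block in psoas and EDL only, and 0 in the untrimmed libraries, and these last 2 settings were chosen after seeing the data. At an unadjusted p under 0.05, the fit of these muscles alone had 8 regulators, beside 4104 of all 16112 genes. With the block in them it was 9 regulators, beside 4725 genes. In soleus vs EDL (5), it was 3 with the trimming covariate, 1 in the untrimmed libraries, and 3 to 5 when leaving out a library, with 5 under the replicate block. In soleus vs psoas (2), it was 0 in the untrimmed libraries and 2 under the replicate block.

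Over all genes, DESeq2 called 1095, 1520, and 1382 in psoas vs EDL, soleus vs EDL, and soleus vs psoas, against 340, 929, and 917. These numbers were 605, 371, and 566 with the trimming covariate, 146, 586, and 539 with the replicate block, 0, 48, and 33 in the untrimmed libraries (where 1172 genes had an unadjusted p under 0.05 in psoas vs EDL), and 1789, 2995, and 2340 at an adjusted p under 0.05. Psoas vs EDL gave 865 with the sex covariate and 153 in a fit of these muscles alone, of which 7.19% were higher in psoas, against 25.6%, while limma-voom gave 38.2% and DESeq2 39.2%. Leaving out each library gave 61 to 963, 385 to 1511, and 493 to 964, with the highest values without EDL 3. Upper-quartile scaling moved the median of all genes in soleus vs EDL from −0.05 to −0.14 and the share of calls that were higher in soleus from 62.2% to 53.5%, with 5 regulators called as before. The block changed no other call of a regulator. Soleus and EDL or psoas numbers did not pair the libraries (r of 0.326, −0.146, and −0.028 with EDL), so the block is not a pairing for soleus. The causes of these changes were not tested, except that the untrimmed libraries hold 1 EDL and 1 psoas sample, which are assumed to vary like the others.

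A stricter filter kept 10893 genes and dropped Ppargc1b and Ppard. The lowest counts of Ppargc1b, Ppard, and Esrrb were 8, 5, and 6. Esrrb was called in both comparisons of soleus at this depth, and the part of depth in the uncalled values was not tested. Of 120 values of family shares under alternatives, 22 moved by more than the SD between libraries. The 3 or 4 libraries of a muscle differ in age and sex, so the SD holds these differences too.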
